A study of Mus musculus with 2 samples.

Results

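The nuclear-encoded subunits of the mitochondrial respiratory chain and of ATP synthase were examined in dendritic cells that had been derived from mouse bone marrow, called GMDC by the submitters. Members were all genes whose symbol in the platform annotation starts with Nduf, Uqcr, Cox4, Cox5, Cox6, Cox7, Cox8 or Atp5, or is Sdha, Sdhb, Sdhc or Sdhd, and all probe sets carrying exactly 1 such symbol were taken. This gave 98 probe sets for 89 genes, out of 23521 probe sets for 22180 genes with a single symbol. One culture received conditioned medium taken from E0771, a mammary tumour line of the mouse, after exposure of that line to topotecan, a drug that traps topoisomerase I on DNA. The other culture is labelled control, and the medium it received is not given in the sources used here. Strain, age and sex of the mice, the dose of topotecan, the exposure time and any pooling of animals are likewise not given there. Each culture was measured on 1 array, so no value has a replicate error, no test was possible, and every difference below is one between 2 arrays. Whether a difference goes with the topotecan exposure or with any medium from these tumour cells cannot be told apart.

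The respiratory chain sits in the inner mitochondrial membrane. Complex I takes electrons from NADH and complex II from succinate; complex III passes them to cytochrome c, and complex IV, cytochrome c oxidase, hands them to oxygen. Complexes I, III and IV pump protons, and ATP synthase, also called complex V, uses the gradient to make ATP. Dendritic cells activated through Toll-like receptors are known to shift from respiration to glycolysis, and in mouse cells nitric oxide made by such cells can block complex IV. Levels below are log2 intensities as deposited, and a difference is the conditioned-medium value minus the control value on that scale. A gene is represented by its probe set with the highest mean of both arrays. It was kept where that mean reached 4.10, which is the overall median of both arrays. Probe sets differ in their response, so levels of different genes are not ranked against each other.

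Member genes, which include complex I assembly factors, were mostly a little lower with conditioned medium, and few were far apart on the arrays. Of the 89 genes, 82 were kept, and 64 of these (78.0%) had a difference below 0, against 53.9% of all 12755 kept genes. Without the assembly factors, 59 of 74 kept subunit genes (79.7%) lay below 0. Among brighter genes, with a mean at or above the 75th percentile of values, the shares were 61 of 78 members and 54.8% of all genes. At least 1.5-fold lower were 25 of the 82 (30.5%), against a background of 17.4% of all kept genes, and at least 1.5-fold higher were 2 (2.44%), against 16.3%. At the larger size of 2-fold, 5 members were lower (6.10%, background 6.77%) and 2 were higher (2.44%, background 8.72%), so the count of 2-fold lower members is near the background and is no result about them. The median difference of the members was -0.31, with quartiles of -0.64 and -0.09. Over all kept genes the median was -0.07, with quartiles of -0.43 and 0.35. Most members thus lay below 0 and close together, and the range over all members was -1.59 to 2.90.

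**Figure D1:**
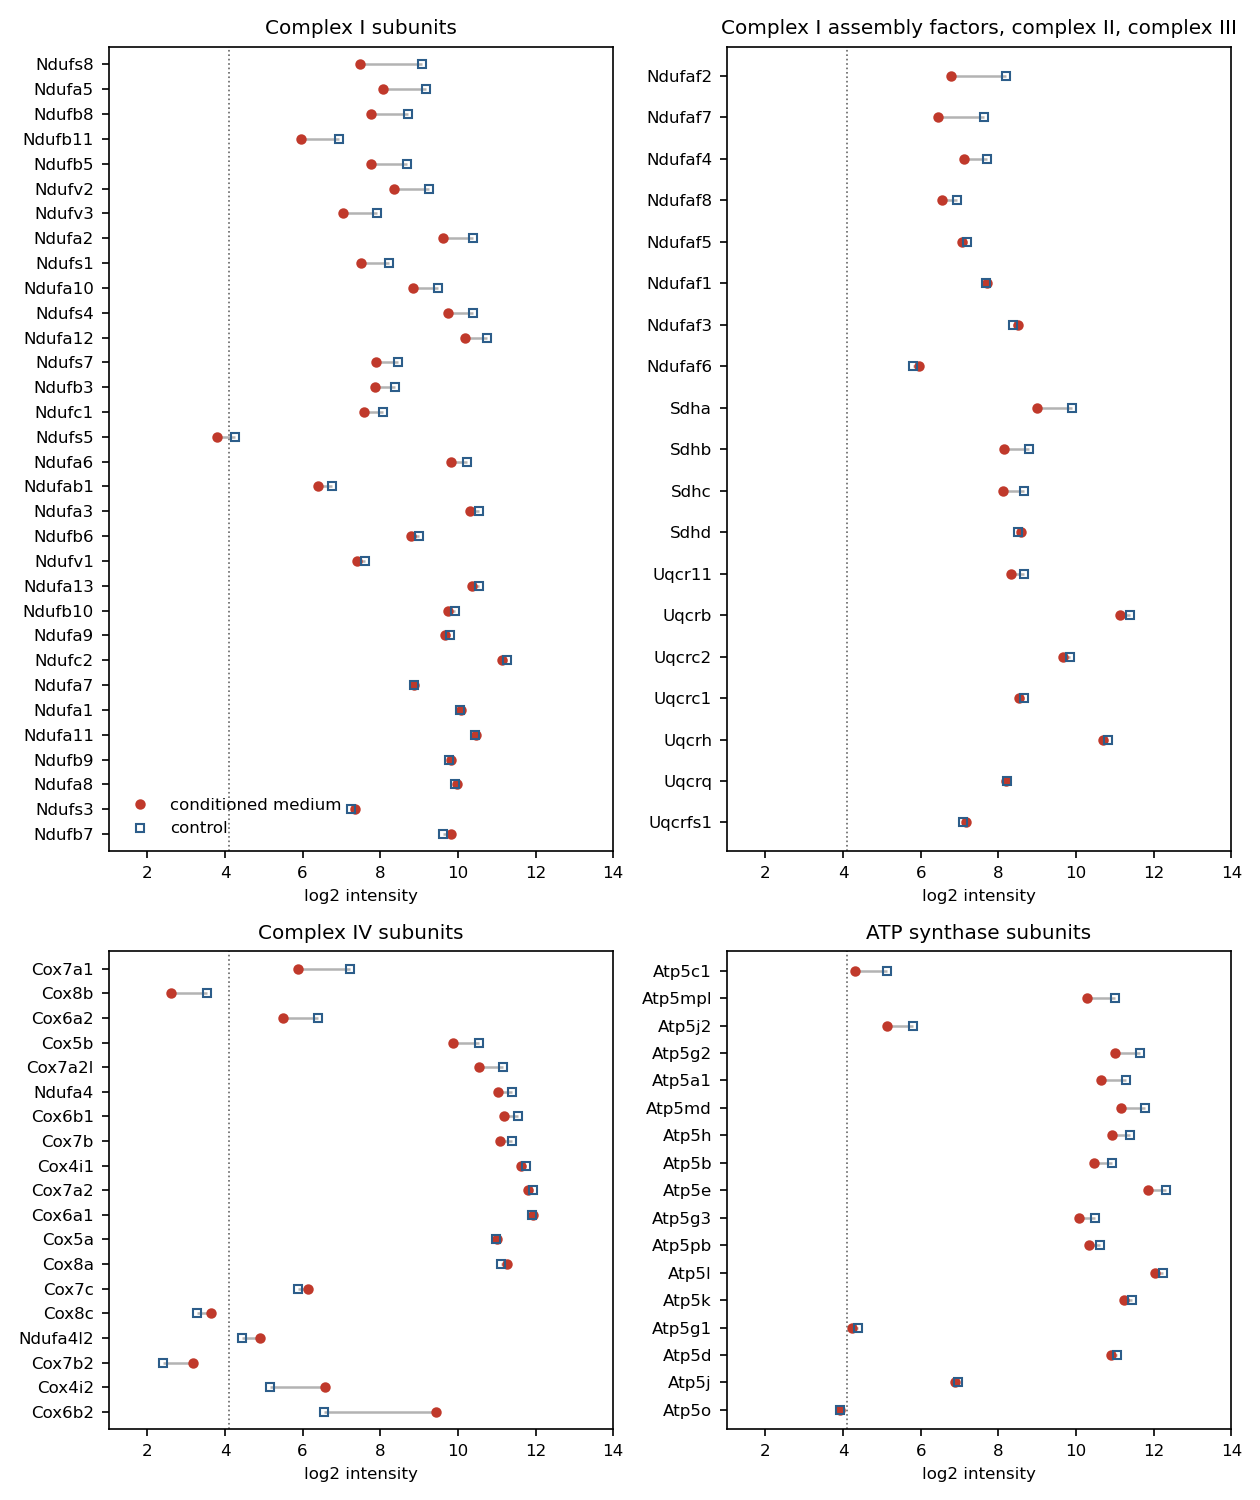
Log2 intensity of each member gene with conditioned medium (filled circles) and in the control (open squares), on 1 array each, sorted by difference within a complex. The pseudogenes Atp5c1-ps and Uqcrh-ps1 are not drawn, and the dotted line is the filter level of 4.10. The pairs mostly lie close together with the control on the right, and Cox6b2 at 9.45 with conditioned medium and 6.54 in the control is the widest pair.

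The 5 members at least 2-fold lower were the complex I subunits Ndufs8 and Ndufa5, the complex I assembly factors Ndufaf2 and Ndufaf7, and the complex IV isoform Cox7a1. The 2 at least 2-fold higher were the complex IV isoforms Cox6b2 and Cox4i2. For 4 of these genes, all subunits, 1 promoter window is shown: 2 lower complex I subunits, and 1 lower and 1 higher complex IV isoform. The windows of the assembly factors are not shown, and that of Cox4i2 was not analysed here. The windows run from 250 bases before to 50 bases after the start of the gene, 5′ to 3′ on the gene's strand, from RefSeq on build GRCm38.p6. Capitals mark a match on either strand to any of 5 motifs: the NRF1 motif GCGCANGCG, the ETS motif CCGGAAG bound by GABPA, the YY1 motif ATGGCGGC, the interferon-stimulated response element GAAANNGAA, and the NF-kB motif GGANTTTCC.
Ndufs8, chr19:3912725-3913024, minus strand: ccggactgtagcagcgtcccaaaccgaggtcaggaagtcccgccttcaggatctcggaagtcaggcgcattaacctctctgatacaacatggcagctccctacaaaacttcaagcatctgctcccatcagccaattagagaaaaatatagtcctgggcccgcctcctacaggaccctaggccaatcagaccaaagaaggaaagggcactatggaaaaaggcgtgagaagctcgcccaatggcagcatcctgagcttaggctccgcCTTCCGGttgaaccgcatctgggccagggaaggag
Ndufa5, chr6:24527477-24527776, minus strand: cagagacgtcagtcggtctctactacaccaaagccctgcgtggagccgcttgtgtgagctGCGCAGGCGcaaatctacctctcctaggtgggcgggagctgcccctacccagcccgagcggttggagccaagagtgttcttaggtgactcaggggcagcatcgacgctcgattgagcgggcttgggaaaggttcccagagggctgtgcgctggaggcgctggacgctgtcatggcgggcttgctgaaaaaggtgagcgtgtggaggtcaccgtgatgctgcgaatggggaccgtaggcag
Cox7a1, chr7:30183921-30184220, plus strand: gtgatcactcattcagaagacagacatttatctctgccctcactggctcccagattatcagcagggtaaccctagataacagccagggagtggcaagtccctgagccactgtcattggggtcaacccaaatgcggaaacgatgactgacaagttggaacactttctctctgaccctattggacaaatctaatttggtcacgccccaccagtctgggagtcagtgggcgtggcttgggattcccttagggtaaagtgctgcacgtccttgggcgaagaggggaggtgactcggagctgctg
Cox6b2, chr7:4753045-4753344, minus strand: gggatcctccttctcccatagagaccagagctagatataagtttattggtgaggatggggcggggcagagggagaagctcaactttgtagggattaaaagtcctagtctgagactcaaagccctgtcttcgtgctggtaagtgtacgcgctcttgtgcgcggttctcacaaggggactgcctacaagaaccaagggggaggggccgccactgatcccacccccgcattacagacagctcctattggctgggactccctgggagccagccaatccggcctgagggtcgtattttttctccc
The Ndufs8 window holds 1 ETS match after its start, and the printed Ndufa5 window holds 1 NRF1 match ahead of its start. Ndufa5 has another window with a different start, not printed, in which the same match lies at -26 in place of -190. None of the 5 motifs is present in these letters of the Cox7a1 and Cox6b2 windows, which says nothing about binding elsewhere. Of the 89 members, 72 had a window in that table, and 5 had several.

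NRF1 and GABPA are transcription factors known to act on nuclear genes of the respiratory chain, and their motifs were common in these windows. The NRF1 motif was present in 20 of 72 members (27.8%), against 7.03% of the 27025 genes in the table. The ETS motif was present in 19 of 72 (26.4%), against 9.93%, and the YY1 motif in 6 (8.33%), against 2.61%. The motifs were counted separately, so a stretch of sequence could count for several, and the shares describe sequence alone. A gene counted where any of its windows held the motif. The 27025 genes were not limited to kept genes or matched to the members for base content, so the shares compare unlike sets. The response element was present in 6 of 72 (8.33%), against 9.76%, and the NF-kB motif in 0 (0%), against 1.45%. Among kept members the median difference was -0.26 for the 18 with an NRF1 motif and -0.35 for the 50 without one. It was -0.19 for the 19 with an ETS motif and -0.41 for the 49 without one. With the YY1 motif it was -0.46 (6 members, against -0.31 for 62 without), and with the response element -0.16 (6 members, against -0.36 for 62 without).

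Complex I, the largest complex, was mostly lower. Of its 32 measured subunit genes 31 were kept, and 25 of these lay below 0 (80.6%, against 53.9% of all kept genes). At least 1.5-fold lower were 11 (35.5%, background 17.4%), and 0 were 1.5-fold higher (background 16.3%). The kept subunits had a median level of 8.84 with conditioned medium and 9.25 in the control, and a median difference of -0.41. Among the core subunits are those that hold the flavin and the iron-sulphur clusters, which pass electrons to ubiquinone. Ndufs8, which binds clusters on that path, was at 7.47 with conditioned medium and 9.06 in the control, 3.02-fold lower. Ndufv2, a core subunit at the NADH end, was at 8.34 and 9.25 in the same order, 1.88-fold lower. Ndufs1, the largest core subunit, was at 7.50 with conditioned medium and 8.22 in the control, 1.65-fold lower. Ndufs7, which holds the last cluster before ubiquinone, was at 7.90 with conditioned medium and 8.45 in the control. The remaining core subunits were nearly level: Ndufv1, which binds NADH and the flavin, had a difference of -0.21 and Ndufs3 one of 0.10. The core subunits therefore did not share 1 size of difference.

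The accessory subunits surround the core and are needed for assembly or stability. Ndufa5, in the arm that faces the matrix, was at 8.08 with conditioned medium and 9.18 in the control, 2.15-fold lower. The membrane-arm subunits Ndufb8 (7.75 with conditioned medium, 8.72 in the control), Ndufb11 (5.96 and 6.93 in that order) and Ndufb5 (7.75 and 8.69) lay just inside 2-fold, at 1.96, 1.95 and 1.92-fold lower. Ndufv3 (-0.87), Ndufa2 (-0.78), Ndufa10 (-0.65), Ndufs4 (-0.64) and Ndufa12 (-0.56) also had differences below 0. At the other end, Ndufb7 was at 9.82 with conditioned medium and 9.61 in the control. Ndufa8 (difference 0.06), Ndufb9 (0.06), Ndufa1 (0.01) and Ndufa7 (0.00) were nearly level. Membrane-arm subunits thus stood at both ends of the order. Ndufs5, at 3.78 with conditioned medium and 4.25 in the control, did not pass the filter.

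Complex I assembly factors are proteins that help build the complex without staying in it. Of 8 such factors, 2 were at least 2-fold lower (25%, background 6.77%) and 0 higher (background 8.72%). Ndufaf2, a chaperone-like factor related to Ndufa12, was at 6.79 with conditioned medium and 8.19 in the control, 2.63-fold lower. Ndufaf7, a methyltransferase of the matrix, was at 6.44 with conditioned medium and 7.62 in the control, 2.27-fold lower. Ndufaf4 had a difference of -0.57, Ndufaf8 of -0.37 and Ndufaf5 of -0.14. The highest were Ndufaf6, at 5.95 with conditioned medium and 5.80 in the control, and Ndufaf3, at 8.51 and 8.37 in that order. The list was thus split between a pair of wide negative differences and others near level, with a median of -0.25.

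Complex II is succinate dehydrogenase, the enzyme shared by the Krebs cycle and the respiratory chain, and its 4 subunits are all encoded in the nucleus. Sdha, the flavoprotein that oxidises succinate, was at 8.99 with conditioned medium and 9.89 in the control, 1.87-fold lower. Sdhb, the iron-sulphur subunit, was at 8.16 with conditioned medium and 8.80 in the control, 1.56-fold lower. The membrane anchors differed from each other, with Sdhc at 8.13 with conditioned medium and 8.65 in the control and Sdhd at 8.59 and 8.50 in that order. The catalytic pair and 1 anchor were lower and the other anchor was level.

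Among genes under the symbol rule, complex III showed the narrowest range. Of 8 listed subunit genes 7 were measured with a single symbol, and all 7 were kept. Their differences ran from -0.32 to 0.07 with a median of -0.14. By 1.5-fold 0 were lower and 0 higher, against 17.4% and 16.3% of all kept genes. The small subunits Uqcr11 (8.33 with conditioned medium, 8.65 in the control) and Uqcrb (11.12 and 11.38 in that order) were the lowest. Uqcrfs1, the Rieske iron-sulphur protein, was at 7.17 with conditioned medium and 7.10 in the control, and Uqcrq had a difference of -0.04. The core proteins Uqcrc1 and Uqcrc2 had differences of -0.14 and -0.17. Cyc1, the cytochrome c1 subunit that the symbol rule does not take in, was at 7.97 with conditioned medium and 8.50 in the control, 1.44-fold lower. Cycs, which encodes cytochrome c itself, went the other way, at 11.74 with conditioned medium and 10.41 in the control (2.51-fold higher).

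**Figure D2:**
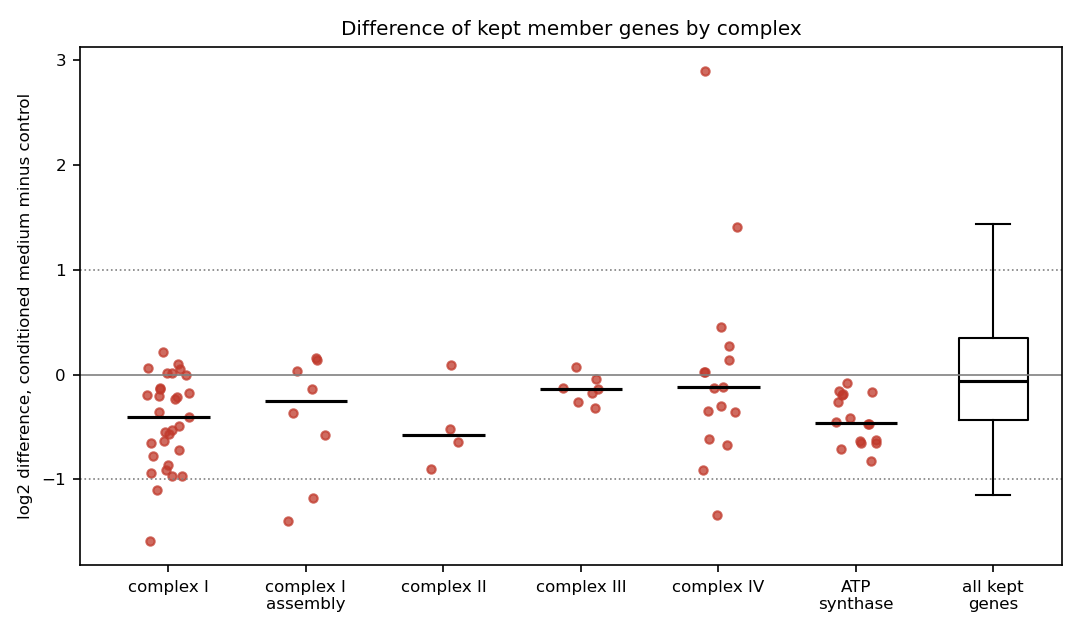
Log2 difference, conditioned medium minus control, of each kept member gene (points) with the median of each complex (bars), beside all 12755 kept genes (box: quartiles and median; whiskers: 5th and 95th percentiles); dotted lines mark 2-fold. All 16 kept ATP synthase genes lie below 0, complex III stays between -0.32 and 0.07, and the 2 members over 2-fold higher, Cox6b2 and Cox4i2, belong to complex IV.

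Complex IV was divided between its widely expressed subunits, which were nearly level, and isoforms known from particular tissues or conditions, which were far apart in both directions. Of the 16 kept complex IV genes 9 lay below 0 (56.25%, close to the 53.9% of all kept genes), with a median of -0.12. All 10 measured widely expressed subunits were kept, with 6 below 0 (60.0%, against the same 53.9%). Their differences ran from -0.67 to 0.28 with a median of -0.12. Cox5b, a zinc-binding subunit, was at 9.88 with conditioned medium and 10.55 in the control, 1.59-fold lower. Ndufa4, named after complex I but known as a complex IV subunit, was at 11.04 with conditioned medium and 11.40 in the control. Cox5a (0.03), Cox6a1 (0.02) and Cox8a (0.14) had differences just above 0. Cox7c had the highest difference among them, at 6.15 with conditioned medium and 5.87 in the control. Cox7a2l, a factor that joins complexes III and IV into supercomplexes, was at 10.55 with conditioned medium and 11.17 in the control, 1.53-fold lower. Among these genes Cox5b and Cox7a2l were the ones more than 1.5-fold apart.

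Of the 8 isoforms known from particular tissues or conditions, 5 were kept and 4 of those were over 1.5-fold apart. By that size 2 were lower and 2 higher, against 17.4% and 16.3% of all kept genes. Cox6b2, the isoform of Cox6b1 known from testis, was at 9.45 with conditioned medium and 6.54 in the control, 7.49-fold higher. Both values lay well above the filter level, while Cox6b1 was 1.27-fold lower (11.19 with conditioned medium, 11.54 in the control). Its neighbour Kmt5c in RefSeq order was at 5.24 with conditioned medium and 5.42 in the control, and the neighbour on the other side, Fam71e2, lay under the filter level on both arrays. Cox4i2, the isoform of Cox4i1 known from lung and induced by low oxygen, was at 6.57 with conditioned medium and 5.15 in the control, 2.66-fold higher. Its partner Cox4i1 was nearly level at 11.61 with conditioned medium and 11.74 in the control. Ndufa4l2, a relative of Ndufa4 known as a target of the hypoxia factor HIF1, was low on both arrays (4.89 with conditioned medium, 4.43 in the control).

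The muscle and heart isoforms lay on the other side. Cox7a1 was at 5.88 with conditioned medium and 7.22 in the control, 2.53-fold lower, while Cox7a2, its widely expressed counterpart, was at 11.81 and 11.93 in that order. Cox6a2 was at 5.49 with conditioned medium and 6.40 in the control, 1.88-fold lower, and its counterpart Cox6a1 was level at 11.93 and 11.91. The isoform differences in complex IV therefore ran in both directions while each counterpart stayed within 1.28-fold. Cox8b, Cox8c and Cox7b2 did not pass the filter, with values of 2.61, 3.63 and 3.16 with conditioned medium and 3.53, 3.28 and 2.40 in the control.

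**Figure D3:**
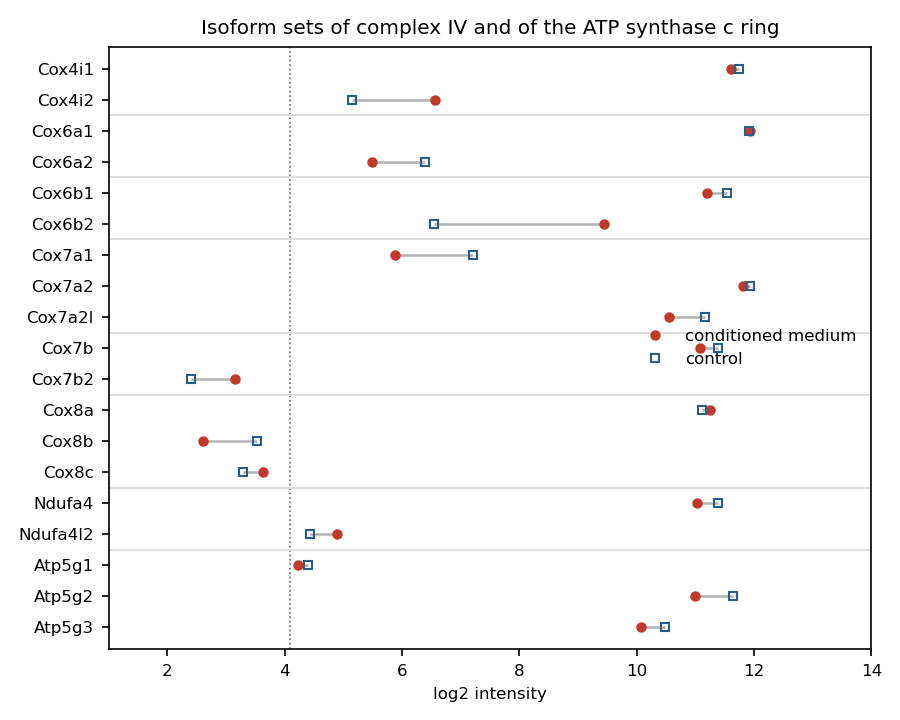
Log2 intensity of isoform sets with conditioned medium (filled circles) and in the control (open squares), 1 array each; the dotted line is the filter level of 4.10. Cox6b2 and Cox4i2 are higher with conditioned medium, Cox7a1 and Cox6a2 are lower, and Cox4i1, Cox6a1, Cox7a2 and Cox8a have nearly equal values.

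ATP synthase was lower throughout its kept genes. All 16 of the 17 measured genes that were kept had differences below 0, against 53.9% of all kept genes. The differences ran from -0.82 to -0.08, with a median of -0.46. At least 1.5-fold lower were 6 (37.5%, background 17.4%), and 0 were 2-fold lower (background 6.77%). The kept ATP synthase genes had a median level of 10.55 with conditioned medium and 11.02 in the control. In the catalytic F1 part, the alpha subunit Atp5a1 was at 10.64 with conditioned medium and 11.28 in the control, 1.55-fold lower. The beta subunit Atp5b, which forms most of the catalytic sites, was at 10.45 with conditioned medium and 10.92 in the control, 1.39-fold lower. The rotating gamma subunit Atp5c1 had the lowest difference at 4.30 with conditioned medium and 5.13 in the control, and its conditioned-medium value lay close to the filter level. The delta subunit Atp5d was nearly level at 10.90 with conditioned medium and 11.05 in the control.

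The membrane part and stalk gave a similar range. Atp5mpl, a small membrane subunit, was at 10.28 with conditioned medium and 11.00 in the control, 1.64-fold lower. Another small membrane subunit, Atp5j2, was at 5.14 with conditioned medium and 5.79 in the control, 1.58-fold lower. Atp5md, known for the dimer form of the enzyme, was at 11.15 with conditioned medium and 11.77 in the control, 1.54-fold lower. The c ring that turns with the proton flow is encoded by 3 genes with the same mature protein: Atp5g2 was at 11.00 with conditioned medium and 11.65 in the control, and Atp5g3 at 10.07 and 10.48 in that order. Atp5g1 lay near the filter level on both arrays, at 4.22 with conditioned medium and 4.40 in the control. Atp5pb (-0.26), Atp5l (-0.19), Atp5k (-0.18) and Atp5j (-0.08) had the smaller differences. Atp5o did not pass the filter and held the same value, 3.93, on both arrays. Atp5c1-ps and Uqcrh-ps1, annotated as pseudogenes, were under the filter level on both arrays.

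Genes with several probe sets gave the only measure of technical spread. In 9 member genes 2 probe sets passed the filter, and the differences of the pairs had a pooled SD of 0.11 (9 degrees of freedom), against 0.44 over all 591 kept genes with several (713 degrees of freedom). Atp5g2 gave -0.65 and -0.62, Ndufa12 -0.61 and -0.56, Cox5b -0.67 and -0.49, Atp5h -0.60 and -0.47, and Atp5e -0.60 and -0.45. Cox7b was the widest pair at -0.65 and -0.30, where the first probe set was dim (5.87 with conditioned medium, 6.53 in the control). Atp5d gave -0.16 and -0.02, Ndufa8 0.01 and 0.06, and Ndufa11 -0.07 and 0.01, the only pair of opposite sign. These pairs share the same RNA and arrays and say nothing of the spread between cultures. Many members have processed copies or close paralogues in the genome, and their probe sets could share signal. A further 10 probe sets listed a member-type symbol beside another symbol and were not used. Of these, 8 were lower with conditioned medium, with differences from -0.94 to 0.23. They were not filtered by level, and 53.9% of all kept genes lay below 0. Bright probe sets can saturate. The 33 kept members with a mean of at least 10 had differences from -0.78 to 0.14, with 28 below 0. The share of all genes at that level was not counted. It was 54.8% for all genes at or above the 75th percentile, a lower level. The arrays reached 13.50 with conditioned medium and 13.42 in the control.

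The subunits encoded by mitochondrial DNA had differences of much the same size. Of 10 measured, 9 lay below 0 (90.0%, against 53.9% of all kept genes) and 0 were 2-fold apart. Their median was -0.38, beside -0.31 for the nuclear members. ND3 (12.28 with conditioned medium, 12.87 in the control) and ND2 (11.50 and 11.98 in that order), both of complex I, were the lowest. COX1, the catalytic subunit of complex IV, was level at 12.42 with conditioned medium and 12.40 in the control, and COX3 had a difference of -0.25. These values lay near the top of the arrays, where saturation could narrow a difference.

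Genes of the Krebs cycle and pyruvate dehydrogenase, which feed electrons to the chain, were also mostly lower. Of 16 measured and kept, 13 lay below 0 (81.25%, against 53.9% of all kept genes). At 2-fold, 3 were lower (18.75%, background 6.77%) and 0 higher (background 8.72%), and the median of the list was -0.42. Suclg2, a subunit of succinyl-CoA synthetase, was at 6.76 with conditioned medium and 8.46 in the control, 3.27-fold lower. Fh1, which encodes fumarate hydratase, was at 7.85 with conditioned medium and 9.38 in the control, 2.90-fold lower. Mdh2 (difference 0.36) and Dlst (0.28) were the highest. Of the other subunits of succinyl-CoA synthetase, Sucla2 had a difference of -0.88 and Suclg1 was nearly level at -0.11.

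Assembly factors outside the symbol rule did not share a direction. Of 40 measured, 39 were kept, and 21 of these lay below 0 (53.8%, close to the 53.9% of all kept genes). On the lower side 4 passed 2-fold (10.3%, background 6.77%), and on the higher side 2 (5.13%, background 8.72%). The median of the list was -0.08. The 2 higher ones both act on complex IV. Sco1, which delivers copper, was at 7.84 with conditioned medium and 5.04 in the control (6.98-fold higher), and Cox18, which helps insert a membrane subunit, was at 8.34 and 5.98 in that order (5.14-fold higher). Cox16, also a complex IV factor, was lowest, at 5.21 with conditioned medium and 6.82 in the control (3.04-fold lower). Lrpprc, which stabilises mitochondrial messenger RNA, was at 5.03 with conditioned medium and 6.52 in the control (2.83-fold lower). Complex IV factors thus stood at both ends, as did the complex IV isoforms.

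Regulators of mitochondrial gene expression did not share a direction. Of 15 measured, 14 were kept, and 8 of these lay below 0 (57.1%, close to the 53.9% of all kept genes). At least 2-fold lower was 1 (7.14%, background 6.77%), and the median of the list was -0.20. Tfb1m, which methylates mitochondrial ribosomal RNA, was at 5.12 with conditioned medium and 7.06 in the control, 3.84-fold lower. Pprc1, a coactivator of the PGC-1 family, had a difference of -0.80, and Twnk (0.44) and Mef2a (0.43) were the highest. Nrf1 (-0.14) and Gabpa (0.00), whose motifs are described above, were nearly level. Ppargc1a, the coactivator PGC-1 alpha, was under the filter level on both arrays (3.18 with conditioned medium, 2.77 in the control). The carriers and porins of the mitochondrial membranes had a median of -0.15, with 6 of 7 below 0 (85.7%, against 53.9% of all kept genes). Slc25a4 (-0.65) and Atpif1 (-0.52) were lowest, and Vdac3 (0.46) and Slc25a5 (-0.02) highest. Atpif1 is the inhibitor of ATP synthase.

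**Figure D4:**
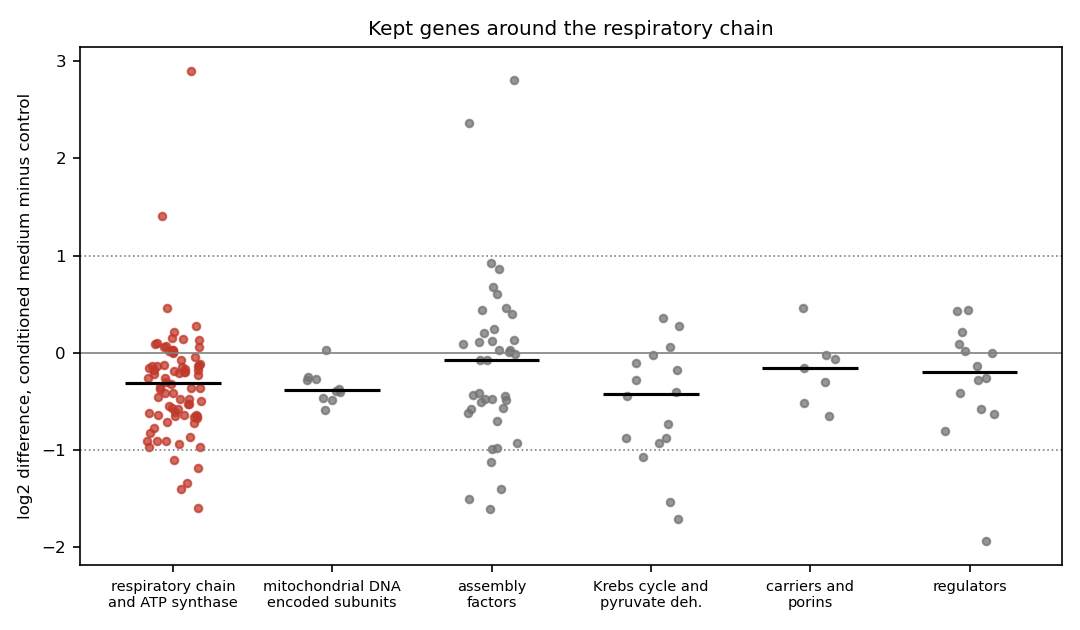
Log2 difference, conditioned medium minus control, of the kept respiratory chain and ATP synthase genes (red) and of 5 lists around them (grey), with medians as bars and dotted lines at 2-fold. The medians are -0.31 for the members, -0.38 for mitochondrial DNA, -0.08 for assembly factors, -0.42 for the Krebs cycle, -0.15 for carriers and -0.20 for regulators.

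Markers of cell types and of proliferation moved on the same arrays, and their part in these differences was not tested. Neutrophil markers had a median level of 5.12 with conditioned medium and 7.78 in the control, with a median difference of -1.65. At 2-fold 10 of 17 were lower and 0 higher, against 6.77% and 8.72% of all kept genes. Above 0 were 4 neutrophil markers, Csf3r (0.89), Cebpe (0.80), Ly6g (0.74) and Lcn2 (0.10), and 3 of them were at least 1.5-fold higher. Proliferation genes had a median of 5.10 with conditioned medium and 6.95 in the control, with a median difference of -1.62. Of these 17, 12 passed 2-fold on the lower side and 1 (Tpx2, 1.04) on the higher, beside the same shares of all kept genes. Among macrophage markers 3 of 10 were at least 2-fold lower (Csf1r, Mrc1 and Adgre1) and 0 higher, against 6.77% and 8.72% of all kept genes. The other 7 lay within 1.5-fold, with Cd68 (0.23) and C1qb (0.26) above 0, and the median difference of the list was -0.17. Of 10 kept dendritic cell markers, 4 passed 2-fold on the higher side (40%, background 8.72%) and 3 on the lower (30%, background 6.77%). The median difference of these markers was -0.05. Batf3 (5.27 with conditioned medium, 7.30 in the control), Clec10a (5.52 and 7.53 in that order) and Itgax (7.15 and 8.18) were the lower ones. The class II genes H2-Aa (10.94 with conditioned medium, 9.06 in the control) and H2-Ab1 (11.30 and 10.16 in that order) were higher. So were Dpp4 (6.66 with conditioned medium, 4.41 in the control) and Irf4 (6.30 and 4.48 in that order). Irf8 had a difference of -0.88, and Zbtb46 (-0.01), Flt3 (-1.23) and Xcr1 (0.69) were not kept. Of 10 epithelial markers 3 were kept, with Cdh1 (10.21 with conditioned medium, 6.42 in the control) and Krt19 (6.59 and 4.44) higher and Krt8 (4.77 and 4.96) nearly level; Epcam (3.24 with conditioned medium, 2.67 in the control) and Krt18 (3.30 and 3.51) lay under the filter level. In RNA of a whole culture, fewer cells of a type and less RNA per cell cannot be told apart.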

How the data were processed

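RNA from 2 cultures was measured on 1 Affymetrix array each, from Trizol-extracted total RNA made into biotin-labelled cRNA, per the labels' protocols. The authors deposited 1 table of values, treated here as log2 intensity since they run from -0.26 to 13.50. Affymetrix Expression Console made them, per the submitters' processing notes; neither its version and algorithm nor the log base is stated there. Array medians were 4.09 with conditioned medium and 4.10 in the control, so a shift of most genes could not be seen. The number of arrays limits the precision.

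Symbols came from the platform annotation: 23521 of 41345 probe sets had 1, 1814 several and 16010 none. All 89 member genes had their identifier in RefSeq (GRCm38.p6). The filter on the mean kept 12755 of 22180 genes. No detection calls were used. The members, complex assignments, size rules and lists were chosen with earlier results of these data known. Named were all members past 2-fold, the extremes of each complex and list (3 lowest and 3 highest, or 2 and 2), core and catalytic subunits, isoform sets and genes with several kept probe sets; other members were named after their values were seen. Counting was tested on simulated data. Python 3.11.15, numpy 2.4.6, pandas 2.3.3, statsmodels 0.14.6 and matplotlib 3.10.9 were used.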

Additional observations from a re-analysis of the deposited data

How the results depend on the processing

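Alternatives tried were quantile normalization, a lowess correction by level (fraction 0.3, 3 iterations), centring on kept genes, averaging a gene's probe sets, every probe set on its own, no filter, a filter on the higher value, a filter at the 75th percentile and a size rule of 1.5-fold. Over the 8 that apply to medians, the median difference of the members ran from -0.35 to -0.23, and the share below 0 from 74.2% to 82.9%. Medians ran from -0.45 to -0.33 in complex I, -0.63 to -0.49 in complex II, -0.17 to -0.05 in complex III, -0.21 to -0.05 in complex IV and -0.50 to -0.39 in ATP synthase, with no change of sign. At 1.5-fold 25 members were lower in place of 5; the looser size is the cause by construction. The count of higher members was 2 under each alternative. No paired analysis was possible because each condition had 1 array. Dim members (Atp5g1, Atp5c1, Ndufa4l2) lay close to the filter level, where background limits a difference, and saturation of bright ones was not tested.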
